A study of Drosophila melanogaster with 2 samples.

Results

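Nuclear tRNA genes were examined for binding of the eGFP-tagged product of CG15336 in Drosophila melanogaster prepupae. The members were the 290 genes that Ensembl release 115 gives the type tRNA on the main chromosome arms, of 18277 genes on those arms when transposable elements are left out. A further 22 tRNA genes of the mitochondrial genome were not members. Chromatin immunoprecipitation and sequencing had been done on whole transgenic prepupae that carry a CG15336-eGFP fusion, 2 days old per the labels, with an antibody against GFP. There was 1 group, with 2 biological replicates, and no second genotype, stage or treatment. Sex was not collected, the sequence that drives the fusion is not stated, and whole organisms mix all tissues, so binding in a few cells and weak binding in many cannot be told apart. The control experiment that the labels name was not analysed here.

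tRNA genes are transcribed by RNA polymerase III from promoters that lie inside the gene. An A box near the start and a B box in the later part of the gene are bound by the factor TFIIIC, which places TFIIIB upstream of the start, and TFIIIB recruits the polymerase. tRNA genes of the fly occur as identical copies, often in clusters and in the introns of protein-coding genes. In several organisms they and their TFIIIC sites are also known as places where other chromatin proteins are found. The 290 genes held 95 distinct sequences of 71 to 186 bp, with a median of 73 bp, and 16 of them contain an intron. Starts less than 1000 bp apart were joined into 175 loci, of which 68 held more than 1 gene. The B box core searched for was GTTCNANNC, which 271 of the 290 genes hold on their own strand.

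Gene sequences are shown for members on which the results turn, with the B box core in capitals and all other bases in lower case. tRNA:Pro-AGG-1-4 (chr2L:14599674-14599745, plus strand) stands for 7 identical copies, of which 4 had a peak. tRNA:Cys-GCA-1-3 (chr3L:3096369-3096440, plus strand) stands for 4 identical copies, of which 3 had a peak. tRNA:Tyr-GTA-1-8 (chr3R:8669081-8669174, minus strand) had the highest signal and contains an intron. tRNA:Gln-TTG-2-1 (chrX:3427452-3427523, minus strand) had the highest signal among peaks away from protein-coding starts, and tRNA:Gln-TTG-1-1 (chr3L:11801471-11801542, minus strand) had no peak. These 2 glutamine genes differ at 1 base, T16C, written as the base of tRNA:Gln-TTG-1-1, the position from 1 at the gene's 5′ end, and the base of tRNA:Gln-TTG-2-1. Coordinates are dm6, and bases are from the RefSeq Release 6 genome.
tRNA:Pro-AGG-1-4: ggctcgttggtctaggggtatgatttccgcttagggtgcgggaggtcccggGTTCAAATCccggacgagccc
tRNA:Cys-GCA-1-3: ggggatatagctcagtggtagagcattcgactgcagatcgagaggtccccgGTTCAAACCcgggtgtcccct
tRNA:Tyr-GTA-1-8: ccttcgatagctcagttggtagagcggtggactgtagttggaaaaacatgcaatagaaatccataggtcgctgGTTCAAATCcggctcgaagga
tRNA:Gln-TTG-2-1: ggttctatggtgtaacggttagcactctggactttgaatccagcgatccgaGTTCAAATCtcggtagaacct
tRNA:Gln-TTG-1-1: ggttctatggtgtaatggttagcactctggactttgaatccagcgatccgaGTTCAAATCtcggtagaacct

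Windows of 101 bp centred on peak summits show where the signal was highest relative to these genes. They are written along the strand of the tRNA gene, and here capitals mark bases of the annotated tRNA gene. The window at tRNA:Tyr-GTA-1-8 (chr3R:8669331-8669431, minus strand) and that at tRNA:Gln-TTG-2-1 (chrX:3427692-3427792, minus strand) lie upstream of the gene and hold none of its bases. The window at tRNA:Pro-AGG-1-4 (chr2L:14599640-14599740, plus strand) and the second window at tRNA:Cys-GCA-1-3 (chr3L:3096376-3096476, plus strand) are among the few whose summit lies inside the gene.
tRNA:Tyr-GTA-1-8 summit window: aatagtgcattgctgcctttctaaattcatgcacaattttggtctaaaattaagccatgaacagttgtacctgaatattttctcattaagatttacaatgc
tRNA:Gln-TTG-2-1 summit window: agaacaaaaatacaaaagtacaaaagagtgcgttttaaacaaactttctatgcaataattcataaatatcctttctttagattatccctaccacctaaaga
tRNA:Pro-AGG-1-4 summit window: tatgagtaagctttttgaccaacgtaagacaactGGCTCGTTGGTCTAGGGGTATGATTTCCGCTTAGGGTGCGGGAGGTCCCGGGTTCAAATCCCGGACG
tRNA:Cys-GCA-1-3 summit window: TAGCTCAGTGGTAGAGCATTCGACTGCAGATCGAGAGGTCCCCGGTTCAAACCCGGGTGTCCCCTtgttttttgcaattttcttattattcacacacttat

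A summit of the conservative peak list lay within 500 bp of the start of 45 of 290 tRNA genes, which is 15.5% (Wilson 95% interval 11.8 to 20.1). The background over all 18277 genes was 16.2%, and that of protein-coding genes was 18.2% (17.6 to 18.8). The background thus lay inside the tRNA interval in the conservative list. In the replicate 1 list 23 tRNA genes had a summit, which is 7.93% (5.34 to 11.6), against a background of 11.3%. In the replicate 2 list 64 tRNA genes had one, which is 22.1% (17.7 to 27.2), against a background of 15.3%. In replicate 1 the background lay inside the tRNA interval, and the share of protein-coding genes, 12.8%, lay above it. In replicate 2 the background and the share of protein-coding genes, 17.1%, lay below the tRNA interval. The less strict list from both replicates gave 71 tRNA genes, which is 24.5% (19.9 to 29.7), against 19.0%, which lay below the tRNA interval. Across the replicates the number of tRNA genes averaged 43.5 ± 29 (SD, n = 2). The intervals cover counting error only, and clustered genes that share a peak are not independent.

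**Figure D1:**
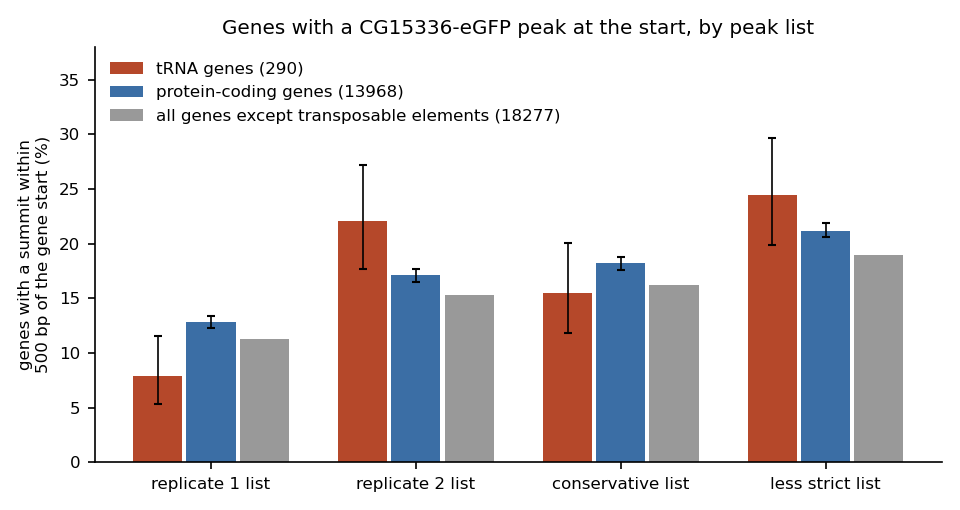
Share of tRNA genes, protein-coding genes and all genes with a peak summit within 500 bp of the gene start (%, vertical axis) in each of the 4 deposited lists; error bars are Wilson 95% intervals, drawn for tRNA and protein-coding genes. The tRNA share was 7.93% in replicate 1, 22.1% in replicate 2, 15.5% in the conservative list and 24.5% in the less strict list, below the all-gene background in the replicate 1 and conservative lists and above it in the others.

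The 23 tRNA genes of replicate 1 were all among the 64 of replicate 2 and made up 35.9% of them. Replicate 2 alone had 41 tRNA genes and replicate 1 alone had 0. All 23 shared genes were in the conservative list, with 14 of the 41, and 8 conservative genes were in neither replicate's list. These 8 were tRNA:Trp-CCA-2-3, tRNA:Trp-CCA-2-4, tRNA:Gly-GCC-1-12, tRNA:Ile-TAT-1-1, tRNA:Cys-GCA-1-1, tRNA:Cys-GCA-1-2, tRNA:Cys-GCA-1-3 and tRNA:Lys-CTT-1-12. The lists were thresholded by the irreproducible discovery rate (IDR), which measures how reproducible a peak's rank is, and lower is more reproducible. On the −log10 scale used here the threshold is 2 and the files stop at 5. Of the 41 genes of replicate 2 alone, 31 had a summit in the unthresholded ranked list of replicate 1, with −log10 IDR of 0.328 to 1.97 and a median of 1.20. The median of these 31 genes in replicate 2 was 2.57, so they had a candidate peak in both replicates and passed the threshold in replicate 2. The other 10 genes had no ranked summit in replicate 1, and their median in replicate 2 was 2.84. Over the ranked lists, 148 tRNA genes (51.0%) had a summit in replicate 1, against 44.3% of all genes, and 195 (67.2%) had one in replicate 2, against 54.2%.

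The 45 genes shared 35 distinct peaks, since 7 peaks lay near 2 tRNA genes and 5 lay near 3 or more. Of the 35 peaks, 16 (45.7%) overlapped a peak of the replicate 1 list, against 67.3% of all 9295 conservative peaks. In replicate 2 the overlap was 29 of 35 (82.9%), against 76.4% of all. Both lists were overlapped by 16 tRNA peaks, replicate 2 alone by 13, replicate 1 alone by 0 and neither by 6. Some of the 35 peaks overlap each other, and joining them gave 30. These are pairs at tRNA:Asp-GTC-1-5, tRNA:Ser-AGA-2-4, tRNA:Cys-GCA-1-3, tRNA:His-GTG-1-4 and tRNA:Ile-TAT-1-1. None of them overlapped the replicate 1 list, so each such region counts as 2 peaks without an overlap there. How often this holds among all conservative peaks was not examined. Median −log10 IDR at the tRNA peaks was 1.95 in replicate 1 and 3.19 in replicate 2. Median summit shift from the conservative summit was 17.0 bp in replicate 1 and 28.0 bp in replicate 2. The number of peaks in each list was 6678 for replicate 1, 8219 for replicate 2, 9295 for the conservative list and 10787 for the less strict list, and the files give no sequencing depth.

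**Figure D2:**
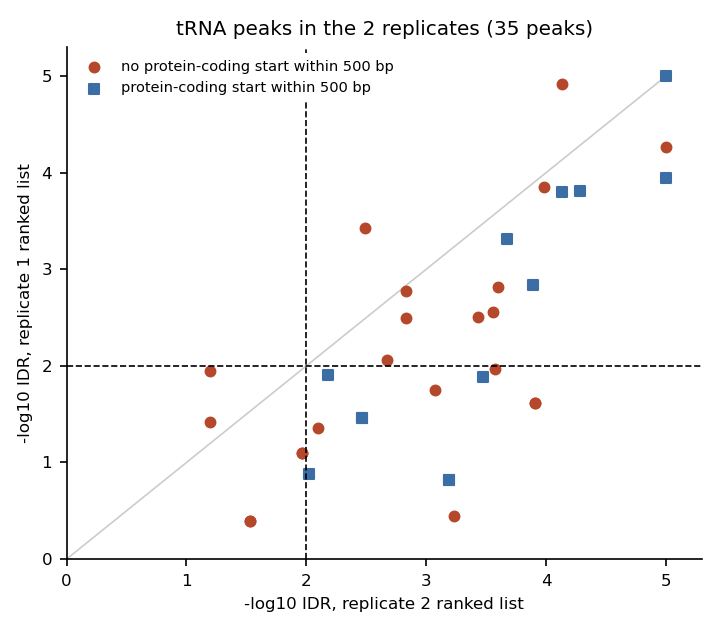
The −log10 IDR of the 35 conservative tRNA peaks in the ranked list of replicate 2 (horizontal) and of replicate 1 (vertical), with circles for peaks away from protein-coding starts and squares for the others; dashed lines mark the threshold of 2 and the diagonal marks equal values. Most points lie below the diagonal, with medians of 1.95 in replicate 1 and 3.19 in replicate 2, and peaks that share a replicate peak fall on the same point.

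Of the 35 peaks, 13 also lay within 500 bp of the start of a protein-coding transcript and 22 did not. In genes, 14 tRNA genes had a peak shared with a protein-coding start, and for 31 of 290 (10.7%, interval 7.63 to 14.8) every peak lay away from one. The same count over noncoding genes other than tRNA genes was 252 of 4019, a background of 6.27%. Among these, ncRNA genes had 240 of 3289 (7.30%), snRNA genes 3 of 32 (9.38%) and pseudogenes 5 of 330 (1.52%). For snoRNA genes, most of which lie in introns of other genes, it was 4 of 269 (1.49%), and for rRNA genes 0 of 99. The tRNA share away from protein-coding starts was 5.17% in replicate 1 (15 genes, interval 3.16 to 8.36), against 4.73% of the other noncoding genes. It was 15.5% in replicate 2 (45 genes, 11.8 to 20.1), against 5.45%, and 17.9% in the less strict list (52 genes, 13.9 to 22.8), against 7.22%. The noncoding background thus lay below the tRNA interval in the conservative, replicate 2 and less strict lists and inside it in replicate 1. In the conservative list, snRNA genes at 9.38% lay inside that interval, and ncRNA genes at 7.30% lay just below its lower limit of 7.63%. The intervals treat clustered tRNA genes that share a peak as independent, so they are too narrow.

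The share of tRNA genes with a peak was higher where the tRNA gene itself lay closer to a protein-coding start. A peak was present at 11 of 32 tRNA genes with such a start within 500 bp (34.4%, interval 20.4 to 51.7). It was present at 12 of 47 at 500 to 1000 bp (25.5%, 15.3 to 39.5) and at 22 of 211 farther away (10.4%, 6.99 to 15.3). The intervals of the nearest and the farthest class do not overlap in the conservative list or in replicate 2. In replicate 1 they overlap, at 8.89 to 35.3 for the nearest class and 3.28 to 9.68 for the farthest. These intervals treat clustered tRNA genes that share a peak as independent, so they are too narrow. Replicate 1 gave 18.8%, 10.6% and 5.69% over the same 3 classes, and replicate 2 gave 43.8%, 27.7% and 17.5%, so the order was the same in both. The 22 peaks away from protein-coding starts were 564 to 18982 bp from the nearest one, with a median of 5504 bp. Of these, 8 lay inside a protein-coding gene and 14 outside.

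Peak signal is the authors' value, with no stated scale, and is used only within a list. tRNA peaks had signals of 5.54 to 945.7 with a median of 117.1, against a median of 123.1 over all conservative peaks. Their median rank percentile, which is higher for a higher signal, was 46.9. It was 48.4 in replicate 1, 38.9 in replicate 2 and 41.8 in the less strict list. There were 13 tRNA peaks in the higher-signal part of the list, above its median, and 1, at tRNA:Tyr-GTA-1-8, ranked far above the others. Peaks shared with a protein-coding start had a median signal of 136.9 (33.0 to 945.7, 13 peaks), and those away from one had a median of 109.0 (5.54 to 268.3, 22 peaks). These ranges overlap, and the difference between the medians was not tested.

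**Figure D3:**
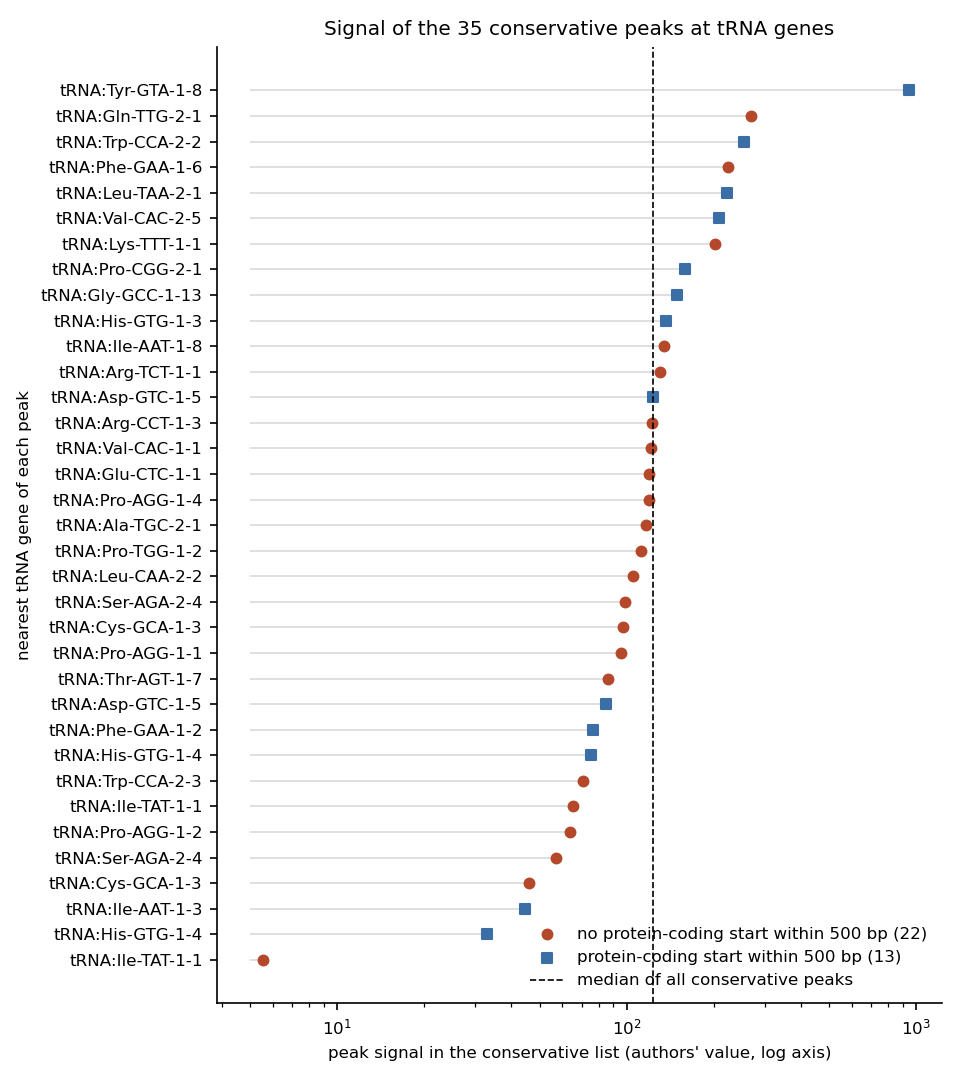
Signal in the conservative list (authors' value, log axis) of the 35 peaks at tRNA genes, each named by its nearest tRNA gene; squares are the 13 peaks also within 500 bp of a protein-coding start, circles the 22 others, and the dashed line the median of all conservative peaks, 123.1. The peak at tRNA:Tyr-GTA-1-8 stands alone at 945.7, and the next highest is at 268.3.

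The peak of highest signal, at tRNA:Tyr-GTA-1-8, had 945.7 and rank 121 in the conservative list. In the longer, unthresholded ranked lists, its signal was 392.5 at rank 185 in replicate 1 and 544.5 at rank 102 in replicate 2. Its −log10 IDR was at the limit of the files in both. The summit lay 207 bp upstream of the tRNA gene and 237 bp from a start of CG8036, and the tRNA gene lies inside CG8036 and p (pink). The 4 other tyrosine genes whose names run from tRNA:Tyr-GTA-1-4 to tRNA:Tyr-GTA-1-7 lie on the same arm and had no conservative peak. The closest of them, tRNA:Tyr-GTA-1-7, was 676 bp from the same summit.

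The next highest peaks away from protein-coding starts were at tRNA:Gln-TTG-2-1, tRNA:Phe-GAA-1-6 and tRNA:Lys-TTT-1-1. tRNA:Gln-TTG-2-1, which lies inside CG12535, had a signal of 268.3 at rank 1591, with 103.8 in replicate 1 and 160.0 in replicate 2. Its summit was 219 bp upstream of the gene and 8065 bp from the nearest protein-coding start. tRNA:Phe-GAA-1-6 had 223.7 at rank 2056, with 124.2 in replicate 1 and 99.1 in replicate 2, and its summit was 442 bp upstream. tRNA:Lys-TTT-1-1, inside Btk, which encodes a Tec family tyrosine kinase, had 201.4 at rank 2400, with 84.4 in replicate 1 and 111.7 in replicate 2. Its summit was 324 bp downstream of the tRNA start and 6073 bp from the start of Btk. All 3 passed the threshold in both replicates.

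At the printed glutamine pair, tRNA:Gln-TTG-1-1 had no summit within 500 bp in any of the 4 lists, and its nearest conservative summit was 16041 bp away. Its identical copies tRNA:Gln-TTG-1-2 and tRNA:Gln-TTG-1-3 had a summit in replicate 2 (−log10 IDR 3.39) but only 0.513 in replicate 1, and none in the conservative list. The leucine gene tRNA:Leu-TAA-2-1 had a peak of 222.8, 146 bp upstream of its start and near the starts of CG13605 and Root, which encodes rootletin. It differs from tRNA:Leu-TAA-1-1 at 1 base, T51A, counted in the same way, and that gene's nearest conservative summit was 543 bp away, just past the limit.

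Peaks shared with protein-coding starts included several whose coding gene is well known. At tRNA:Gly-GCC-1-13 and tRNA:Trp-CCA-2-6 the summit was 310 bp from a start of tud, which encodes the germ plasm protein Tudor, with signals of 148.7, 63.8 in replicate 1 and 89.3 in replicate 2. At tRNA:Pro-CGG-2-1 it was 181 bp from a start of Bx, a LIM-only transcription cofactor gene, with 158.9, 59.1 in replicate 1 and 98.4 in replicate 2. At tRNA:Val-CAC-2-5 it was 435 bp from a start of Naam, a nicotinamidase gene, with 208.4, 86.9 in replicate 1 and 108.7 in replicate 2. At tRNA:Trp-CCA-2-2 and tRNA:Gly-GCC-1-9 it was 227 bp from CG30122, with 254.5, 90.5 in replicate 1 and 157.1 in replicate 2. At tRNA:Phe-GAA-1-2 it was 30 bp from a start of RpL17, a ribosomal protein gene, and 275 bp from the tRNA start, with a signal of 76.5. tRNA:Asp-GTC-1-5 had 2 peaks, of 123.2 and 84.6, at 304 and 98 bp from a start of Sema1a, a semaphorin of axon guidance, and both overlap 1 peak of each replicate's ranked list, at a −log10 IDR of 0.818 in replicate 1 and 3.19 in replicate 2. At tRNA:His-GTG-1-3 the summit was 156 bp from CG8490, with 136.9, and replicate 1 stayed just under the threshold at 1.88.

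Of the peaks away from protein-coding starts, those of middle signal had −log10 IDR values that differed widely between the replicates at some genes and little at others. At tRNA:Arg-TCT-1-1 and tRNA:Met-CAT-1-1 the signal was 130.7, with −log10 IDR of 0.441 in replicate 1 and 3.23 in replicate 2. At tRNA:Arg-CCT-1-3 and tRNA:Arg-CCT-1-2 it was 122.6, with 3.43 in replicate 1 and 2.49 in replicate 2. At tRNA:Glu-CTC-1-1, tRNA:Glu-TTC-1-1 and tRNA:Glu-TTC-1-2, inside mrj, which encodes a DnaJ co-chaperone, it was 119.2, with 2.77 in replicate 1 and 2.83 in replicate 2. At tRNA:Ile-AAT-1-8, inside the flippase gene ATP8A, it was 134.1, with 2.51 in replicate 1 and 3.43 in replicate 2, and the nearest start of ATP8A was 649 bp away. At tRNA:Ala-TGC-2-1 it was 117.1, with 2.56 in replicate 1 and 3.56 in replicate 2, and at tRNA:Val-CAC-1-1 it was 121.2, with 1.75 in replicate 1 and 3.07 in replicate 2. At tRNA:Pro-TGG-1-2, tRNA:Ala-AGC-2-2 and tRNA:Ala-AGC-2-3 it was 112.5, with 2.50 in replicate 1 and 2.83 in replicate 2. Over all 35 peaks, 10 of the 22 away from protein-coding starts and 6 of the 13 others overlapped both replicate lists.

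The 3 peaks of lowest signal were at tRNA:Ile-TAT-1-1 with 5.54, tRNA:His-GTG-1-4 with 33.0 and tRNA:Ile-AAT-1-3 with 44.6. The first 2 are second peaks beside stronger ones, of 65.5 and 75.3, at the same gene. tRNA:Ile-AAT-1-3 was the only one of the 45 genes that the less strict list did not contain. At the 500 bp limit, the members farthest from their summit were tRNA:Leu-CAA-2-2 at 462 bp (signal 105.5), tRNA:Val-CAC-2-5 at 464 bp (208.4) and tRNA:Cys-GCA-1-1 at 487 bp (97.5). The nearest genes outside it were tRNA:Lys-CTT-1-13 at 537 bp (45.8), tRNA:Pro-TGG-1-1 at 540 bp (121.2) and tRNA:Leu-TAA-1-1 at 543 bp (101.2).

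Summits lay on both sides of the tRNA genes. Among 53 pairs of summit and tRNA gene, the summit was upstream of the gene in 28, inside it in 3 and downstream in 22. A tRNA gene of median length fills 7.29% of the bases searched around its start, and 5.66% of the pairs had the summit inside. The peak interval covered the whole gene in 16 pairs, overlapped part of it in 7 and did not reach it in 30. The 3 inside were at tRNA:Pro-AGG-1-4, 16 bp past the start, tRNA:Trp-CCA-2-3, 25 bp past it, and tRNA:Cys-GCA-1-3, 57 bp past it. Over the 35 peaks the median distance to the nearest tRNA start was 148.0 bp. The replicate 1 list had 13 pairs upstream, 0 inside and 10 downstream, and the replicate 2 list had 44 upstream, 3 inside and 27 downstream. The median position of the nearest summit, over genes with one, was -60.0 bp in the conservative list, -88.0 bp in replicate 1 and -62.5 bp in replicate 2, where negative is upstream. DNA had been sheared to 200 to 800 bp per the labels, so a summit is not resolved to the length of a tRNA gene.

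**Figure D4:**
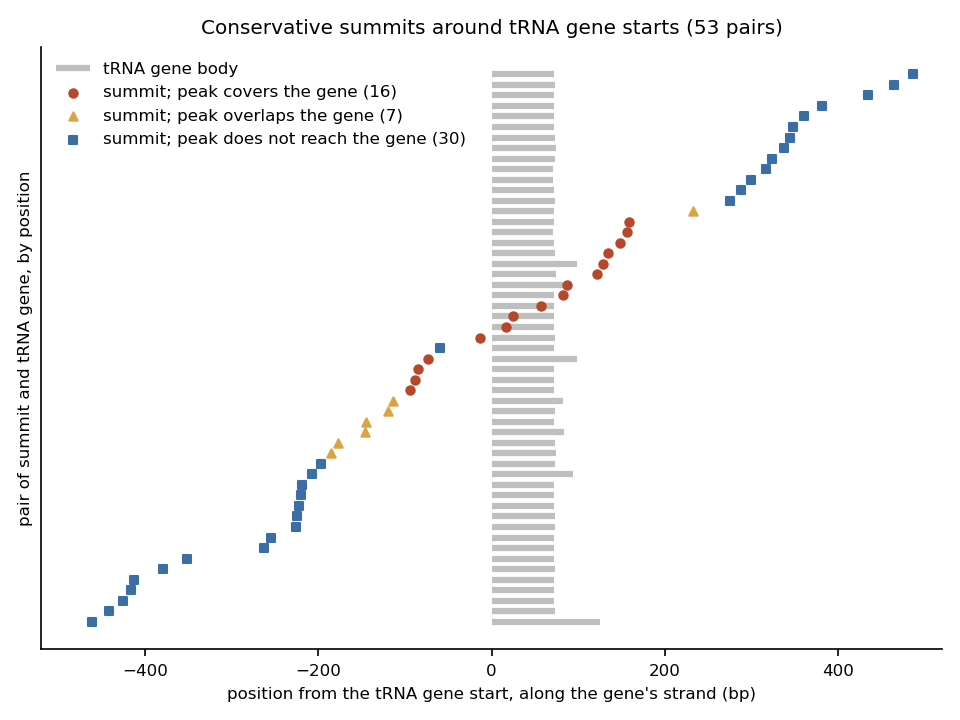
Position of each conservative summit along the strand of a tRNA gene, in bp from its start (horizontal axis), for the 53 pairs sorted by position; grey bars are the gene bodies, and colour and shape show whether the peak interval covers the gene (16), overlaps part of it (7) or does not reach it (30). Summits lie on both sides of the genes, 28 upstream and 22 downstream, with 3 inside.

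The density of summits was described in rings around the gene starts. Within 250 bp there were 21.4 summits per 100 kb searched around tRNA starts, against 28.3 around protein-coding starts and 24.4 around all gene starts. From 250 to 500 bp the densities were 15.2, 11.4 and 11.2 in the same order of tRNA, protein-coding and all genes. From 2000 to 5000 bp they were 12.2 around tRNA starts, against 7.82 around protein-coding starts and 7.95 around all. A summit near several clustered tRNA genes was counted once for each of them, and no test was made of these densities.

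All 35 summits had a lower GC content within 50 bp than the nearest tRNA gene, which says little about these peaks in particular. Even the lowest GC of a tRNA gene, 45.8%, lay above the median of all conservative summits, 31.7%. The 35 tRNA summits had a median GC of 34.7% (13.9 to 55.4), and tRNA genes themselves had a median of 58.5% (45.8 to 67.6). The B box core was found on either strand in 6 of the 35 windows of 101 bp (17.1%), against 259 of all 9295 windows (2.79%). In 5 of the 6 a match lay inside an annotated tRNA gene, namely at tRNA:Asp-GTC-1-5, tRNA:Pro-AGG-1-4, tRNA:Ser-AGA-2-4, tRNA:Trp-CCA-2-3 and tRNA:Cys-GCA-1-3, which follows from choosing summits near tRNA genes. With 100 bp to each side the shares were 31.4% of tRNA windows and 5.54% of all. The letters GAGAG, searched on both strands as in the GAGA factor's sites, were in 3 of 35 windows of 101 bp (8.57%), against 12.5% of all windows.

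Identical copies of a tRNA gene differed in whether a peak lay near them. Of the 7 copies of tRNA:Pro-AGG-1, the 4 on arm 2L had a peak and the 3 on arm 3L did not. tRNA:Pro-AGG-1-4 and tRNA:Pro-AGG-1-3 shared a peak of 119.1, with −log10 IDR of 1.97 in replicate 1 and 3.57 in replicate 2. tRNA:Pro-AGG-1-1 had a peak of 95.5, with 2.06 in replicate 1 and 2.67 in replicate 2, and tRNA:Pro-AGG-1-2 one of 63.7, which overlaps ranked peaks at 1.95 in replicate 1 and 1.20 in replicate 2. Another ranked summit within 500 bp of tRNA:Pro-AGG-1-2 reached 2.27 in replicate 2, so all 4 copies are in the replicate 2 list and 1 is in the replicate 1 list. On arm 3L the nearest summits were 1834 bp from tRNA:Pro-AGG-1-5, 1497 bp from tRNA:Pro-AGG-1-6 and 683 bp from tRNA:Pro-AGG-1-7. Reads from identical copies cannot be placed by the gene sequence itself, and how such reads were treated is not given in the sources used here.

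Of the 6 copies of tRNA:Trp-CCA-2, 4 had a peak, 2 of them in both replicate lists. Of the 4 copies of tRNA:Cys-GCA-1, the 3 adjacent ones inside the chitinase gene Cht7 had peaks of 97.5 and 45.8, which they shared with tRNA:Lys-CTT-1-12. Neither replicate list contained these peaks, which overlap ranked peaks at a −log10 IDR of 0.389 in replicate 1 and 1.53 in replicate 2. Another ranked summit of replicate 2, within 500 bp of these 3 copies and of tRNA:Lys-CTT-1-12, scored higher and stayed just under the threshold of 2. The fourth copy, tRNA:Cys-GCA-1-4 in the same cluster, was 1093 bp from the nearest summit. Larger families had few peaks or none: 3 of 13 copies for tRNA:Gly-GCC-1, 1 of 13 for tRNA:Lys-CTT-1, 2 of 12 for tRNA:Asp-GTC-1, 2 of 11 for tRNA:Ala-AGC-2, 0 of 10 for tRNA:Arg-ACG-1 and 0 of 9 for tRNA:Glu-CTC-3. For tRNA:Asn-GTT-1 and tRNA:Leu-CAG-1 no copy was in the conservative or replicate 1 list, but 4 of 10 and 5 of 8 copies were in the replicate 2 list. In all, 28 of the 95 distinct sequences and 29 of the 175 loci had a peak at any copy.

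By amino acid, 19 of 22 classes had at least 1 gene with a conservative peak. Classes hold from 1 to 26 genes, so this count cannot be set beside a share of single genes. Gene by gene, the share was 15.5% over all tRNA genes, and the background over all genes was 16.2%. Proline had 6 of 17 genes, with 3 in replicate 1 and 6 in replicate 2, and tryptophan had 4 of 8, with 2 in each replicate. Cysteine had 3 of 7 but 0 in either replicate's own list, and histidine had 2 of 5, with 0 in replicate 1 and 2 in replicate 2. Arginine, the largest class, had 3 of 26, with 2 in replicate 1 and 5 in replicate 2. Leucine had 2 of 22, with 2 in replicate 1 and 9 (40.9%) in replicate 2, which was above proline's 35.3% there. Serine had 1 of 20 and threonine 1 of 17, each with 0 in replicate 1 and 2 in replicate 2. The order of the classes thus differed between lists. Asparagine had 0 of 10, with 0 in replicate 1 and 4 in replicate 2, the initiator methionine tRNA, which starts every protein, 0 of 6, and the selenocysteine gene tRNA:SeC-TCA-1-1 also had none. No initiator gene had a summit in any of the 4 lists. Genes in clusters share peaks, so these counts are of genes and not of separate binding events.

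**Figure D5:**
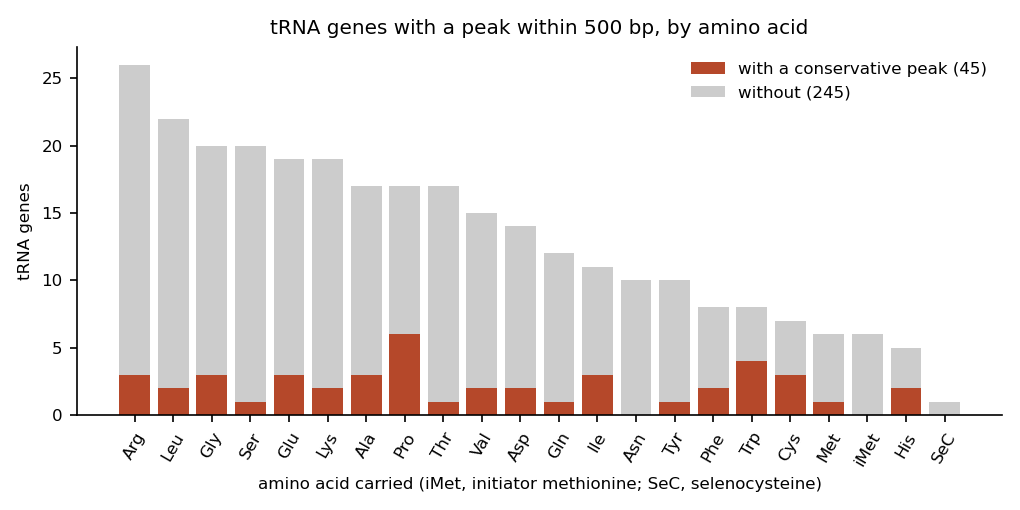
Number of nuclear tRNA genes (vertical axis) by the amino acid carried, with those that have a conservative summit within 500 bp of the start in red (45) and the others in grey. Proline has the most genes with a peak, 6 of 17, and asparagine, the initiator methionine and selenocysteine have 0.

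By cluster size, location and intron, the Wilson intervals of the classes overlapped in the conservative list. Genes alone in their locus had a peak in 12 of 107 cases (11.2%), those in loci of 2 genes in 14 of 84 (16.7%), those in loci of 3 or 4 in 14 of 68 (20.6%) and those in larger loci in 5 of 31 (16.1%). In replicate 1 the numbers were 8, 8, 7 and 0 genes over the same classes of rising locus size. In replicate 2 they were 14 (13.1%, interval 7.96 to 20.8), 26 (31.0%, 22.1 to 41.5), 20 (29.4%, 19.9 to 41.1) and 4 (12.9%, 5.13 to 28.9), and there the intervals of genes alone and of loci of 2 genes do not overlap. Genes of 1 locus can share a peak, so their counts are not independent. tRNA genes inside a protein-coding gene had 17 of 134 (12.7%) and those outside had 28 of 156 (17.9%), with 6.72% inside and 8.97% outside in replicate 1 and 20.1% inside and 23.7% outside in replicate 2. Genes with an intron had 3 of 16 (18.8%, interval 6.59 to 43.0), against 42 of 274 without (15.3%, 11.5 to 20.1). In replicate 1 these were 2 with an intron and 21 without, and in replicate 2 they were 3 with and 61 without. By arm, 8 of 41 genes on 2L, 19 of 98 on 2R, 6 of 48 on 3L, 9 of 79 on 3R and 3 of 24 on X had a peak. Over the same order of arms, replicate 1 had 2, 11, 1, 7 and 2 genes and replicate 2 had 10, 33, 6, 12 and 3.

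The 5 largest clusters showed how uneven the loci were. The 7 isoleucine and leucine genes inside ATP8A on 2R had a conservative peak only at tRNA:Ile-AAT-1-3, while the replicate 2 list also had summits at tRNA:Leu-CAA-2-1, tRNA:Ile-AAT-1-4 and tRNA:Ile-AAT-1-5. The 7 arginine and serine genes on X had no conservative peak, though tRNA:Arg-TCG-2-1 and tRNA:Ser-CGA-1-1 had a summit in the less strict list. Likewise the 6 asparagine and arginine genes on 3R, from tRNA:Asn-GTT-1-10 to tRNA:Arg-ACG-1-10, had none in any list. The 6 cysteine and lysine genes inside Cht7 had peaks at 4. The cluster of 5 genes from tRNA:Arg-ACG-1-2 to tRNA:Lys-CTT-1-2 lies inside EcR, which encodes the ecdysone receptor. It had none, and its best ranked summit in replicate 2 had a −log10 IDR of 1.53. EcR holds further tRNA genes in other loci. Of these, tRNA:Asn-GTT-1-1 and tRNA:Asn-GTT-1-2 had summits in the replicate 2 list (−log10 IDR 2.81) and in the less strict list.

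Genes for the machinery that makes and uses tRNA were read from lists with any annotated transcript start, for which the background over protein-coding genes was 21.3% in the conservative list, 15.6% in replicate 1 and 20.2% in replicate 2. Of 23 genes for RNA polymerase III subunits and factors, 7 had a peak within 500 bp (30.4%, interval 15.6 to 50.9), with 6 in replicate 1 and 6 in replicate 2. Their highest signals were at the TFIIIB subunit genes Bdp1 (signal 348.3) and Brf (334.0) and the polymerase subunit genes Polr3E (303.7) and Polr2H (177.1). Most genes of this list had no peak in the conservative list or in either replicate's list. Among these were the factor gene Trf and the polymerase subunit genes Polr3A, Polr3B, Polr3C, Polr3D and Polr3K. Of 20 genes for cytosolic aminoacyl-tRNA synthetases, which charge tRNAs, 8 had a peak (40%, interval 21.9 to 61.3), with 6 in replicate 1 and 9 in replicate 2. The highest signals were at GluProRS (343.1), ThrRS (265.7), IleRS (254.3) and SerRS (233.8). The background lay inside the polymerase interval and just below the synthetase interval in the conservative list. Of 15 genes found for tRNA processing and modification, 1 had a peak, Archease (213.5), whose product assists tRNA ligation. Replicate 1 had 2, Archease and RNaseZ, and replicate 2 had 2, Archease and wuho. For noncoding genes other than tRNA genes the background at the gene start was 9.46% in the conservative list, 6.44% in replicate 1 and 8.61% in replicate 2. Of 105 other small RNA genes made by RNA polymerase III, 1 had a peak, snRNA:7SKa (119.7), with 0 in replicate 1 and 2 in replicate 2, where RNaseMRP:RNA was the other. None of the 96 genes for 5S ribosomal RNA, a tandem array of near-identical copies, had a conservative peak. The 5S genes make up most of the 105, so the share of that list mainly reflects 1 array. Among the 9 genes other than 5S, 1 had a peak.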

How the data were processed

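Chromatin from 2 biological replicates was immunoprecipitated with an anti-GFP antibody, and the authors deposited peak lists in dm6 coordinates, per the labels and file headers. The deposited files were lists thresholded on the irreproducible discovery rate (each replicate, a conservative list and a less strict list) and ranked lists before the threshold. Peak signal is the authors' deposited value with no stated scale, the −log10 IDR is a score in the authors' deposited ranked lists that stops at a highest value, and no source used here names the aligner or peak caller. Depth cannot be read from peak lists. In the ranked lists made from both replicates, 16 unnamed per-sample columns were not used.

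Summit distances to tRNA gene starts (limit 500 bp), overlaps (at least 1 bp), GC and motif matches were computed with Python 3.11.15, numpy 2.4.6, pandas 2.3.3 and scipy 1.17.1, using Ensembl release 115 and the RefSeq Release 6 genome, and the code was tested on simulated data. Figures used matplotlib 3.10.9. With 1 group no comparison of conditions was possible, so shares have Wilson 95% intervals and no p-values were computed.

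tRNA genes with a conservative peak could be named, with full values for the 12 peaks of highest signal, up to 12 away from protein-coding starts and the 3 of lowest signal. Without a peak, the named ones were the 3 nearest outside the limit, initiator methionine and selenocysteine genes, the 5 largest clusters and families of 4 or more copies. From each list of machinery genes up to 4 were named. Other genes set beside these were chosen after their values were seen. The members and lists were chosen with earlier results of these data known. Alternatives were other lists, windows, thresholds and units of counting.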

Additional observations from a re-analysis of the deposited data

Results flagged for a closer look

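The replicate 2 list held 6 peaks on the mitochondrial genome, which lies outside the nuclear tRNA genes described above, while the replicate 1, conservative and less strict lists held 0. Their signals ran from 314.5 to 1533, and the highest of them stood at rank 2 of the replicate 2 list. Of the 6, 5 had a summit within 500 bp of a mitochondrial tRNA gene start, and 7 of the 22 mitochondrial tRNA genes had such a summit. They were picked out as a signal outside the members. The number of peaks and the rank percentile given above for the replicate 2 list include them. Their relation to the larger number of nuclear tRNA genes in replicate 2 was not tested.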

How the results depend on the processing

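The 45 tRNA genes with a summit within 500 bp became 71 in the less strict list, 21 within 200 bp, 69 within 1000 bp, 17 in the higher-signal part of the list and 24 at an IDR of 0.001 or less. Counting genes that the peak interval overlaps gave 20, genes it covers whole 15, loci 29 and distinct sequences 28. The 35 distinct peaks became 21 within 200 bp, 57 within 1000 bp, 13 in the higher-signal part and 17 at the stricter IDR. The 31 genes whose peaks lay away from protein-coding starts became 52, 14, 47, 6 and 13 under the less strict list, 200 bp, 1000 bp, the higher-signal part and the stricter IDR. Fewer or more peaks and a narrower or wider window change these counts by construction. The median rank percentile of 46.9 became 36.1 within 200 bp. At the stricter IDR it was 31.1, but there ranks were taken again among the peaks kept, so the 2 values are not comparable. In the whole conservative list, the tRNA peaks that met the stricter IDR had percentiles of 40.4 to 98.7. The median position of -60.0 bp became -13.0 bp within 200 bp. Median GC of 34.7% became 29.7% in the higher-signal part and 29.7% at the stricter IDR. The B box share of 17.1% became 5.88% at the stricter IDR and 31.4% with 100 bp to each side. For the percentile within 200 bp and for GC the cause was not tested. With either replicate's list alone, the genes ranged from 23 to 64, the peaks from 16 to 46, the genes away from protein-coding starts from 15 to 45, the percentile from 38.9 to 48.4, the position from -88.0 to -62.5 bp, GC from 29.2% to 35.6% and the B box share from 0% to 15.2%. The other 26 values moved by less than 1.5 times (counts) or 1 SD, among them 30 peaks when overlapping ones were joined, an alternative chosen after seeing the data. No paired analysis was possible because there was 1 group. Depth is unknown, so a tRNA gene without a peak is one where none was listed, not one shown to be unbound.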
